A study of Mus musculus with 4 samples.

Results

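The intronic regions described here are stretches of the mouse genome, inside protein-coding genes but off their exons, where methylation was higher in the first of 2 numbered groups of microglia. They were chosen by the sign of the authors' difference and by position. A region was taken when its level in the first group minus that in the second was above 0, its midpoint lay inside a protein-coding gene, none of its bases lay on a protein-coding exon, and its midpoint was more than 1000 bp from every protein-coding transcript start. The rule gave 958 of the 3389 regions in the list (28.3%), out of 1808 that were higher in the first group. The distance limit left out 24 regions that met the rest of the rule, and the exon limit left out 157. Gene models were those of GENCODE release M21 on GRCm38 (mm10).

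Whole-genome bisulfite sequencing, which reads a cytosine as methylated when bisulfite leaves it unconverted, was applied to microglia from untreated C57BL/6J mice aged 3 months. There were 2 WT samples and 2 IRF8KO samples, the latter lacking the transcription factor IRF8, and cells were sorted after isolation without enzymes. The labels do not give the design of the knockout allele, or whether the samples of a genotype came from separate mice. A growth protocol text of the submitters speaks of a single brain per genotype, so separate mice cannot be assumed. The authors' values analysed here are differences between the groups, with no value per sample, so the spread between replicates cannot be compared with any difference, and no difference has a known read depth. Because the headers give the groups numbers and no genotype, they are called the first and the second group and no genotype was assigned to either. No marker of another cell type could be checked by expression, because the tables hold methylation alone.

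Introns carry many of the enhancers that set cell identity, and active enhancers tend to lose methylation where transcription factors sit. In microglia and other macrophages such elements are commonly bound by PU.1, an ETS-family factor, together with AP-1, C/EBP, RUNX and IRF proteins. IRF8 binds DNA weakly by itself and joins PU.1 on an ETS-IRF composite element, in which the GGAA core of the ETS factor is followed by the GAAA of the IRF protein.

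Sequence is shown first, because the rule did not use it and the comparisons below turn on it. All stretches are from the plus strand of GRCm38, 5′ to 3′, as RefSeq gives the assembly. The first set holds the CpG-densest 200 bases of the 3 regions with the largest difference among the 15 with the highest area score, the authors' sum of test statistics over a region. CpG dinucleotides, the sites that carry most mammalian methylation, are in capitals.
Pcnx intron 7, chr12:81929004-81929203: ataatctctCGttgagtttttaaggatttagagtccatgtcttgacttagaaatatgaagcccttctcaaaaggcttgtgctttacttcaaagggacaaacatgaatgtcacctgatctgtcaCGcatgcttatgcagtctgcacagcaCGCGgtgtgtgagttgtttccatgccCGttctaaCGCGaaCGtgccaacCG
Lhfpl2 intron 2, chr13:94154513-94154712: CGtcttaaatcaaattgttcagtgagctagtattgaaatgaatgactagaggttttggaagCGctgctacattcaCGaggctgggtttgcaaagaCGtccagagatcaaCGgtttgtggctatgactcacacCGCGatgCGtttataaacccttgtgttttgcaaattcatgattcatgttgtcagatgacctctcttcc
Pcnx intron 7, chr12:81931986-81932185: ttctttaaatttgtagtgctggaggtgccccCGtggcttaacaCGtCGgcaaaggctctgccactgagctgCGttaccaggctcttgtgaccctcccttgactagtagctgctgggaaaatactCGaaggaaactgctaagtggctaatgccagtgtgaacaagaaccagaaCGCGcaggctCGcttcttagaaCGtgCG
These stretches hold between 8 and 10 CpGs each.

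The second set shows the composite element, spelled GGAANNGAAA on either strand and printed in capitals, in the 6 regions with the highest area score that hold it inside their own span. Where the element lies on the minus strand, the capitals show its reverse complement.
Gramd1b, chr9:40319244-40319324: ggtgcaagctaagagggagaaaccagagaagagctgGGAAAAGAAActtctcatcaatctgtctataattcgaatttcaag
Cmtm8, chr9:114805460-114805540: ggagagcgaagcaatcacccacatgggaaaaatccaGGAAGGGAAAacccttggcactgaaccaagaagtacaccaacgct
Trps1, chr15:50887438-50887518: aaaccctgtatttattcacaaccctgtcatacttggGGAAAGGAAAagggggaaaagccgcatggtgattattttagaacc
Mid1, chrX:169980808-169980888: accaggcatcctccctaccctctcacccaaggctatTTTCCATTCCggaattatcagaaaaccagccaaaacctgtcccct
3110082I17Rik, chr5:139438425-139438505: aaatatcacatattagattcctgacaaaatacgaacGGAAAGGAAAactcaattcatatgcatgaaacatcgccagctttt
Serpina12, chr12:104041499-104041579: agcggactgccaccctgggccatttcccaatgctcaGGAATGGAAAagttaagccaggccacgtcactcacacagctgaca
For comparison, a pair of lower intronic regions is shown in the same way.
Got1 (lower), chr19:43512076-43512156: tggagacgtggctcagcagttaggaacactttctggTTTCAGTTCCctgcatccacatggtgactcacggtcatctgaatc
Pik3cb (lower), chr9:99112259-99112339: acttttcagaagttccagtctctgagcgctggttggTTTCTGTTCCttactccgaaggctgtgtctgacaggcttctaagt
In both lower regions the element is on the minus strand. Only the 10 capital letters were searched for, not their flanks.

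The third set shows the AP-1 element, TGANTCA, in capitals. AP-1 is a dimer of FOS- and JUN-family proteins. The set holds the 4 regions with the highest area score that carry TGACTCA or its reverse complement TGAGTCA in the 200 bases around their midpoint.
Pcnx, chr12:81932161-81932241: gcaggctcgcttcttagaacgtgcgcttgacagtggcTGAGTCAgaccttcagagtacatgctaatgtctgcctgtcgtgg
Wsb2, chr5:117373580-117373660: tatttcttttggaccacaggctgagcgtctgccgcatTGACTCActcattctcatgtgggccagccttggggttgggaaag
Tiam1, chr16:89973203-89973283: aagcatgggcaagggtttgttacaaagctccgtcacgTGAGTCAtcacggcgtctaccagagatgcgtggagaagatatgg
Ubash3b, chr9:41144007-41144087: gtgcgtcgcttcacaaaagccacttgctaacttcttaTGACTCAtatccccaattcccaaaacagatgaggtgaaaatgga
A match to these letters is a description of the sequence and does not show that a factor binds there.

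The typical region was a short stretch whose methylation level, on a scale from 0 to 1, was about 0.4 higher in the first group. The difference in the authors' deposited table had a median of 0.398 over the 958 regions, with a range of 0.105 to 0.700. The middle of the distribution was narrow, with quartiles of 0.357 and 0.450 in the authors' deposited table. As a measure of error at single positions, the median of the authors' standard error over a region's listed positions, called the position SE here, was taken. Its own median was 0.101 over 957 regions, with a range of 0.0520 to 0.150. The position SE is not the error of a region's difference, which is not given. These differences are what chose the regions, so they are given without a test. In DNA from many cells, a change in every cell and a change in the share of cells of a kind cannot be told apart. A difference of at least 0.5 was reached by 114 regions (11.9%) in the authors' deposited table. The largest was in St8sia4, an enzyme that makes polysialic acid chains, at 0.700 with a position SE of 0.113 in the authors' deposited table, over 6 cytosines that all had an FDR (false discovery rate) under 0.05. The differences of the 795 lower intronic regions had a similar size, with a median of -0.417 in the authors' deposited table.

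**Figure D1:**
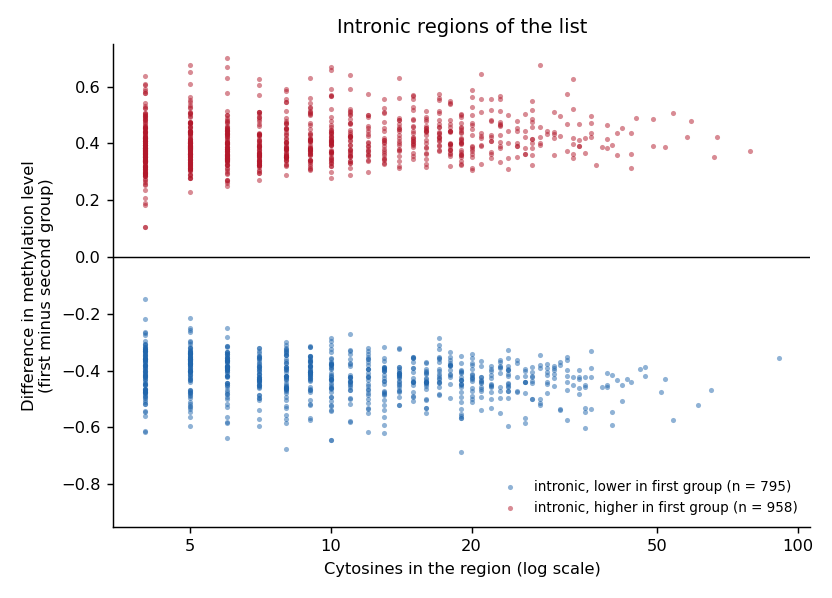
Difference in methylation level, first minus second group (y axis, on a scale where full methylation is 1), against the number of cytosines in the region (x axis, log scale) for the 958 intronic regions higher and the 795 lower ones. The higher regions have a median difference of 0.398 and a median of 8 cytosines, and the lower ones medians of -0.417 and 10.

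Near the limits of the rule the values were as follows. The smallest difference inside was in Adarb2, an RNA-editing family member, at 0.105 with a position SE of 0.0737 in the authors' deposited table. The nearest region outside by sign was in Cdk17, at -0.147 with a position SE of 0.106 in the authors' deposited table. By distance, the closest region inside lay 1042 bp from a start, in Trim25, and the farthest one left out lay 1000 bp from a start, in 2010111I01Rik. Of the 958 regions, 4 had a difference under 0.2 in the authors' deposited table, so the sign decided few close cases.

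Regions were short and held few cytosines. Their length had a median of 179 bp and a range of 51 to 1604 bp in the authors' deposited table, and the number of cytosines, counted on both strands, had a median of 8 and a range of 4 to 79. The reference held a median of 3 CpGs per region, and 16 regions held none. Of the 10721 positions of the authors' site list that lay in these regions, 8510 (79.4%) were on a base of a reference CpG and 10716 had the direction of the region. An FDR under 0.05 was given to 4927 of these positions (46.0%) in the authors' deposited table. At least 1 such position lay in 736 of the 958 regions (76.8%), against 77.9% over all 3389 regions, so the share was near that of the whole list. Every listed position in the region passed that limit in 84 regions (8.77%). The median number of such positions per region was 2, against 3 over all 3389 regions. The share of positions and the count of 84 regions have no share over the whole list beside them and are given as description.

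The 15 regions with the highest area score were long and held many cytosines, which a score summed over a region favours. The highest score belonged to a region in intron 4 of Gramd1b, which moves cholesterol from the plasma membrane to the endoplasmic reticulum. It held 67 cytosines at chr9:40319171-40320774 and was higher by 0.422, with a position SE of 0.0891, in the authors' deposited table. A region in Mid1, a microtubule-associated ubiquitin ligase on chromosome X, held 79 cytosines and was higher by 0.372 (position SE 0.0952) in the authors' deposited table. Mid1 spans the pseudoautosomal boundary in laboratory mice, where X and Y share sequence, and whether this touches its value was not tested.

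The other regions of the 15 are given next. In Cmtm8, a MARVEL-domain membrane protein, the region in intron 1 was higher by 0.507 (position SE 0.0981) in the authors' deposited table. The region in intron 7 of Pcnx, a pecanex-family membrane protein, had the largest difference of the 15, 0.676 with a position SE of 0.0728 in the authors' deposited table. A further region in the same intron of Pcnx was higher by 0.574 (position SE 0.0940) in the authors' deposited table, and its 32 listed positions all had an FDR under 0.05. Lhfpl2, a tetraspan membrane protein, was higher by 0.625 (position SE 0.0897) in the authors' deposited table, and an FDR under 0.05 was given to 33 of its 33 listed positions. Vps13c, a lipid transfer protein between the endoplasmic reticulum and lysosomes, was higher by 0.487 (position SE 0.0948) in the authors' deposited table. In Sash1, a SAM- and SH3-domain scaffold protein, the difference was 0.423 (position SE 0.0986) in the authors' deposited table. In Uvrag, a regulator of autophagy and endosome traffic, it was 0.390 (position SE 0.105) in the authors' deposited table, and 14 of 49 positions had an FDR under 0.05.

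Trps1, a GATA-type repressor, was higher by 0.488 (position SE 0.101) in the authors' deposited table. Fosl2, which encodes the AP-1 subunit FRA2, was higher by 0.454 (position SE 0.0945) over 42 cytosines of its intron 1 in the authors' deposited table. Pstpip2, an F-BAR adaptor that restrains inflammatory signalling in macrophages, was higher by 0.387 (position SE 0.0997) in the authors' deposited table, with 16 of 52 positions at an FDR under 0.05. Fam234a, at 0.478, Ylpm1, at 0.353, and Letm1, an inner mitochondrial membrane protein, at 0.362, complete the set in the authors' deposited table. Differences of the 15 thus ran from 0.353 to 0.676, on both sides of the median of all 958.

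The regions fell in 669 protein-coding genes, 3.05% of the 21938 in the annotation, while 593 genes (2.7%) held an intronic region lower in the first group. A single region was held by 506 genes, at least 2 by 163, and at least 3 by 61, which together held 248 regions. Genes with a region were long, with a median of 94.4 kb against 17.4 kb over all protein-coding genes, and genes with a lower intronic region were alike at 101.7 kb. A longer gene offers more intron to be counted, so the counts of genes are not adjusted for length. Both directions occurred in 87 genes, which is 13% of the genes with a higher region and 14.7% of those with a lower one. Of the 321 genes with at least 2 intronic regions of any direction, 136 had only higher, 98 only lower and 87 had both.

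Rad51b, a DNA repair protein of homologous recombination, held the most regions, 10 higher and 1 lower in 517 kb. The difference in the authors' deposited table ran from 0.310 to 0.570 over those 10. A run of 5 of them lay within 4830 bp of intron 7, at chr12:79353231-79358060, and held 75 cytosines. Itga6, the integrin alpha 6 chain that binds laminin, held 8 higher and no lower region. In the authors' deposited table the difference in Itga6 ran from 0.360 to 0.472, and 6 of the 8 regions lay in intron 1. Dab2, a clathrin adaptor, also held 8 and no lower one, with differences between 0.354 and 0.608 in the authors' deposited table. The region of Dab2 nearest the gene start was the one with the largest difference, 0.608 with a position SE of 0.104 in the authors' deposited table.

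Itpr1, the endoplasmic reticulum calcium channel opened by inositol trisphosphate, held 7 regions between its introns 31 and 60, with differences of 0.384 to 0.569 in the authors' deposited table. Pmepa1, a membrane protein that restrains TGF-beta signalling, held 7 regions, all in intron 1, with differences of 0.306 to 0.445 in the authors' deposited table. Kcnma1, a potassium channel, held 7 higher regions and 1 lower, and its differences of 0.270 to 0.495 in the authors' deposited table reached below those of Rad51b, Itga6, Dab2, Itpr1 and Pmepa1. Sash1 held 6 higher and 2 lower regions. Hbs1l, a ribosome rescue factor, held 6 higher, and Tcf7l2, a transcription factor of Wnt signalling, held 5, as did 7 other genes, with no lower one in Hbs1l or Tcf7l2. Gm20388 held 8, but it is a 4435 kb model that spans other genes on chromosome 8, so those regions have no gene of their own.

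**Figure D2:**
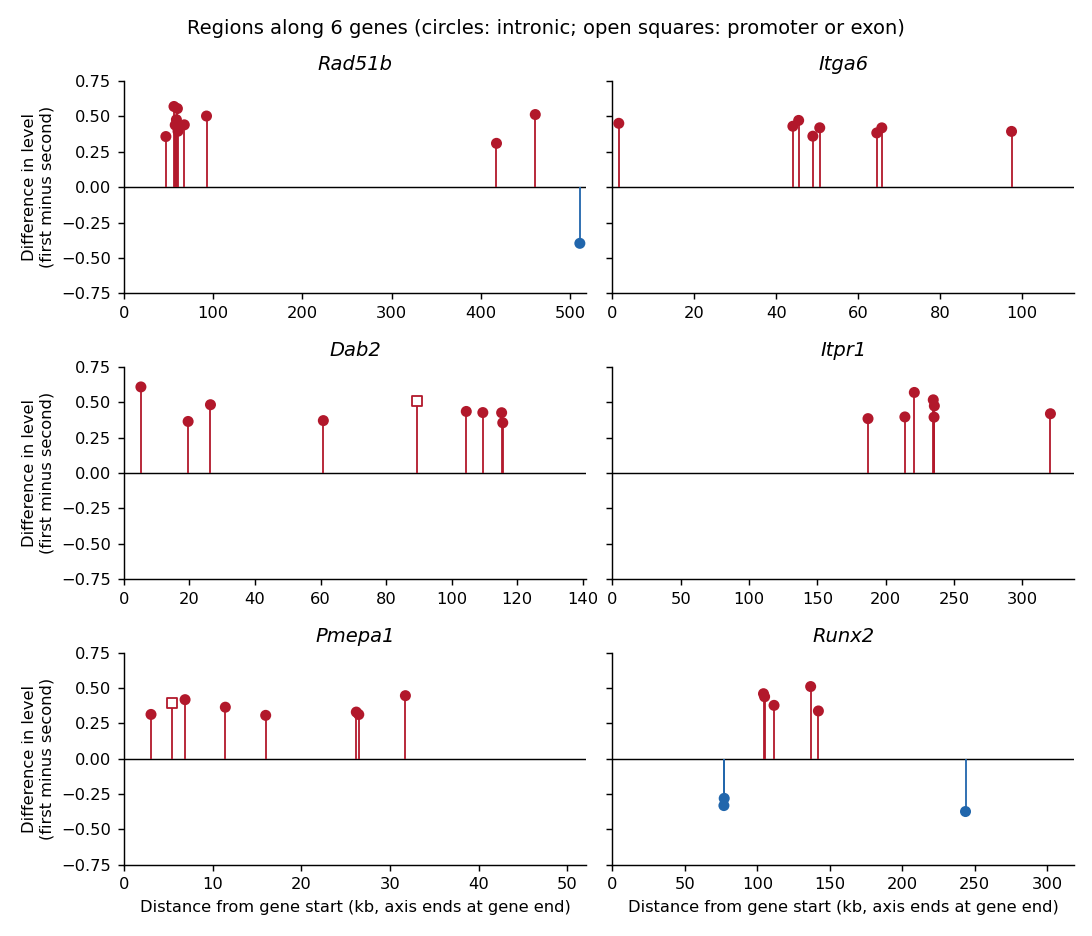
Difference in methylation level, first minus second group (y axis, fraction), of every region of the list along 6 genes, against distance from the gene start (x axis, kb). Red points above 0 are higher and blue points below 0 lower in the first group; Itga6, Dab2, Itpr1 and Pmepa1 hold higher regions alone, Rad51b has 10 higher and 1 lower intronic region, and Runx2 has 5 and 3.

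Higher regions lay near other higher regions. Another member lay within 1000 bp of 144 regions and within 5000 bp of 212. Regions linked within 5 kb formed 841 groups, of which 746 were single regions, 95 had at least 2 and 17 at least 3. Besides the run in Rad51b, 3 groups had 4 regions, in Itga6, Pmepa1 and Armc2. For the 295 members whose nearest intronic region of either direction lay within 10 kb, that neighbour was higher in 276 cases (93.6%), while 54.6% of all intronic regions were higher. The authors' calling can split 1 change into several regions, and its part in this share was not tested.

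Across chromosomes the density ran from 0.814 regions per Mb on chromosome 19, where 50 lay, to 0.0760 on X and 0.0109 on Y, where 13 and 1 lay. The sex of the mice is not given in the labels. Within the gene, 294 regions (30.7%) lay in the first intron, against 30.3% of the lower intronic regions. The odds ratio was 1.02 (95% interval 0.826 to 1.26, two-sided Fisher's exact test, adjusted exact p = 0.986). First introns made up 26.7% of intron bases of 1 transcript per gene. That share is not on the same base as the 30.7%. Of the 958 regions, 58 (6.05%) lay in no intron of the transcript chosen and were counted as not in the first intron. A transcript start lay within 10 kb of 344 regions (35.9%) against 35.6% of lower ones, with an odds ratio of 1.01 (0.829 to 1.24, adjusted exact p = 0.986). A difference in position between higher and lower intronic regions was thus not detected, within the limits of these intervals.

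At least 50% of bases were repeats in 77 regions (8.04%) against 7.30% of lower ones, with an odds ratio of 1.11 (0.768 to 1.61, adjusted exact p = 0.738). With a limit of 75% masked bases, the shares were 3.65% and 2.01% and the unadjusted exact p was 0.0458. Regions higher in the first group more often held fewer than 3 reference CpGs within their own span, 395 of 958 (41.2%) against 260 of 795 (32.7%). That odds ratio was 1.44 (1.18 to 1.77, adjusted exact p = 0.000730). Among regions with at least 10 cytosines it was 1.02 (exact p = 1), with 2 such regions on each side, since the cytosine limit itself removes most of them. The span was shorter in higher regions, with a median length of 179 bp against 216 bp in lower ones. In the 500 bp windows around midpoints the median was 6 CpGs in both directions. The quartiles were 4 and 8 in higher windows and 4 and 9 in lower ones. The part of span length in the odds ratio was not tested.

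The ETS-IRF composite element was far less frequent around higher than around lower intronic regions. It occurred within the 500 bp around the midpoint in 40 of 958 (4.18%), against 242 of 795 intronic regions lower in the first group (30.4%). The odds ratio was 0.0997 (95% interval 0.0683 to 0.142, two-sided Fisher's exact test, Benjamini-Hochberg adjusted exact p = 5.12e-52 over 15 tests). Of the 1716057 windows of 500 bp that tile the introns open to the rule, 5.25% held the element. Of the 443298 of them with at least 6 CpGs, the median of the higher regions' windows and called CpG-rich here, 4.64% held it. Higher regions were thus close to both intronic backgrounds and the lower ones were far above them. Regions of the same direction outside genes but within 50 kb of one gave 15 of 362 (4.14%), with an odds ratio of 1.01 (0.537 to 1.99, adjusted exact p = 1). The 40 regions with the element had a median difference of 0.386 and the other 918 regions one of 0.399 in the authors' deposited table.

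The IRF tandem GAAANNGAAA, which IRF dimers can bind and which shares letters with the composite, was also less frequent. It occurred in 63 higher regions (6.58%) and 87 lower ones (10.9%), with an odds ratio of 0.573 (0.401 to 0.814, adjusted exact p = 0.00360), and in 7.75% of all and 6.32% of CpG-rich intronic windows. In regions of the same direction outside genes it occurred in 37 of 362 (10.2%), a share nearer to that of the lower intronic regions, and this difference was not tested. With 1 region per gene the odds ratio was 0.682 and the unadjusted exact p was 0.0622. The PU.1 site GAGGAAGT was found in 56 higher regions (5.85%) and 36 lower ones (4.53%), an odds ratio of 1.31 (0.836 to 2.07, adjusted exact p = 0.396), and in 2.92% of all and 3.15% of CpG-rich intronic windows. A difference in the PU.1 letters between the directions was not detectable with these numbers. The exact intervals of the higher share (4.45% to 7.52%) and of the lower share (3.19% to 6.21%) both lay above both backgrounds. Regions of the same direction outside genes gave 13 of 362 (3.59%), with an interval of 1.93% to 6.06% that held both backgrounds.

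Elements of other macrophage factors were more frequent around higher regions. The AP-1 element TGANTCA occurred in 217 of 958 (22.7%) against 115 of 795 (14.5%), an odds ratio of 1.73 (1.34 to 2.24, adjusted exact p = 6.57e-05). All intronic windows gave 14.6% and CpG-rich ones 14.2%, close to the lower regions, and gene-near regions of the same direction outside genes gave 24.6%. With windows of 1000 bp the odds ratio for AP-1 was 1.2 and the unadjusted exact p was 0.0798. The C/EBP element TTGCNNAA occurred in 270 (28.2%) against 131 (16.5%), an odds ratio of 1.99 (1.56 to 2.54, adjusted exact p = 3.80e-08), with 21% in all and 18.6% in CpG-rich intronic windows. The higher regions were above both backgrounds for C/EBP. The exact interval of the lower share, 14.0% to 19.2%, held the CpG-rich background and lay below that of all windows. Regions of the same direction outside genes gave 30.1%.

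RUNX proteins are partners of PU.1 in myeloid cells, and their core TGTGGT occurred in 399 higher regions (41.6%) against 253 lower ones (31.8%). The odds ratio was 1.53 (1.25 to 1.87, adjusted exact p = 9.09e-05), with 32.5% in all and 33.3% in CpG-rich intronic windows and 42.3% in regions of the same direction outside genes. Restricted to windows of 45 to 52% GC it was 1.29, with an unadjusted exact p of 0.0907. The E-box CACGTG, the site of MITF, TFE and USF family factors, occurred in 116 (12.1%) against 61 (7.67%), an odds ratio of 1.66 (1.19 to 2.34, adjusted exact p = 0.00517), with 5.33% in all intronic windows. CACGTG itself holds a CpG, and CpG-rich intronic windows gave 10.2%, inside the exact interval of the higher share (10.1% to 14.3%) and above that of the lower share (5.92% to 9.75%). Regions of the same direction outside genes gave 8.84%. The E-box call was lost under 5 of 12 alternatives, among them 1 region per gene, with an odds ratio of 1.45 and an unadjusted exact p of 0.0508. Higher windows had a median GC content of 45.4% and lower windows 47.0%.

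No difference was called for the remaining elements. The MEF2 element was in 81 higher regions (8.46%) and 47 lower ones (5.91%), with an adjusted exact p of 0.0803, and the share was 11.3% in all intronic windows but 7.2% in CpG-rich ones, so the higher share lay between the 2 backgrounds. The GC box GGGCGG was in 66 (6.89%) and 62 (7.80%), with an adjusted exact p of 0.707, against 4.41% of all and 10.2% of CpG-rich intronic windows. The CTCF element was in 0 of 958 and 1 of 795, and the exact upper limit on the higher share was 0.384%. All elements were searched on both strands. Of the 4 elements AP-1, C/EBP, RUNX and E-box, none was found in 282 higher windows (29.4%) and in 357 lower windows (44.9%). Exactly 3 of them were found in 43 higher and 12 lower windows, and all 4 in 3 and 0. Of the 40 higher windows with the composite, 9 also held AP-1, beside 22.7% of all 958 higher windows. Whether the 2 elements occur together more or less often than by chance was not tested.

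**Figure D3:**
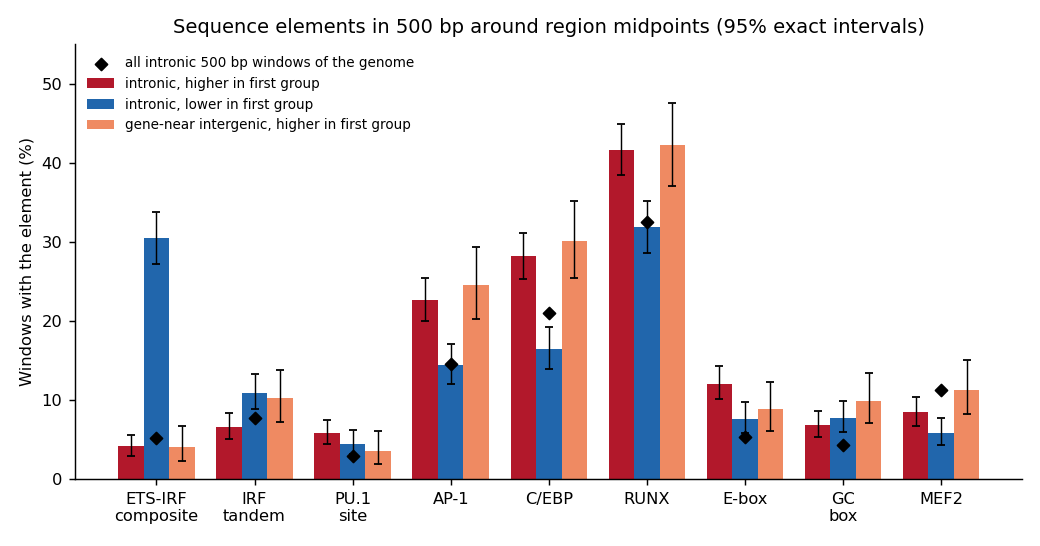
Share of 500 bp windows (y axis, %) that hold each sequence element (x axis), for the 3 sets of regions with 95% exact intervals (bars) and for all intronic windows of the genome (diamonds). The composite stands at 4.18% in intronic regions higher in the first group and at 30.4% in lower ones, while AP-1, C/EBP and RUNX stand at 22.7%, 28.2% and 41.6% in the higher set, above the diamonds.

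Position within the window was also recorded. In 50 bp bins the share of higher regions with an AP-1 match was 2.92% and 3.55% in the 2 bins at the midpoint, and 0.939% and 1.77% in the outermost bins at 500 bp to each side. Lower regions had 1.38% and 1.64% at the midpoint. For the composite, higher regions had 0.626% and 0.418% at the midpoint, no more than at the edges, and lower regions 4.65% and 4.40%. These profiles describe the matches counted above and carry no test.

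**Figure D4:**
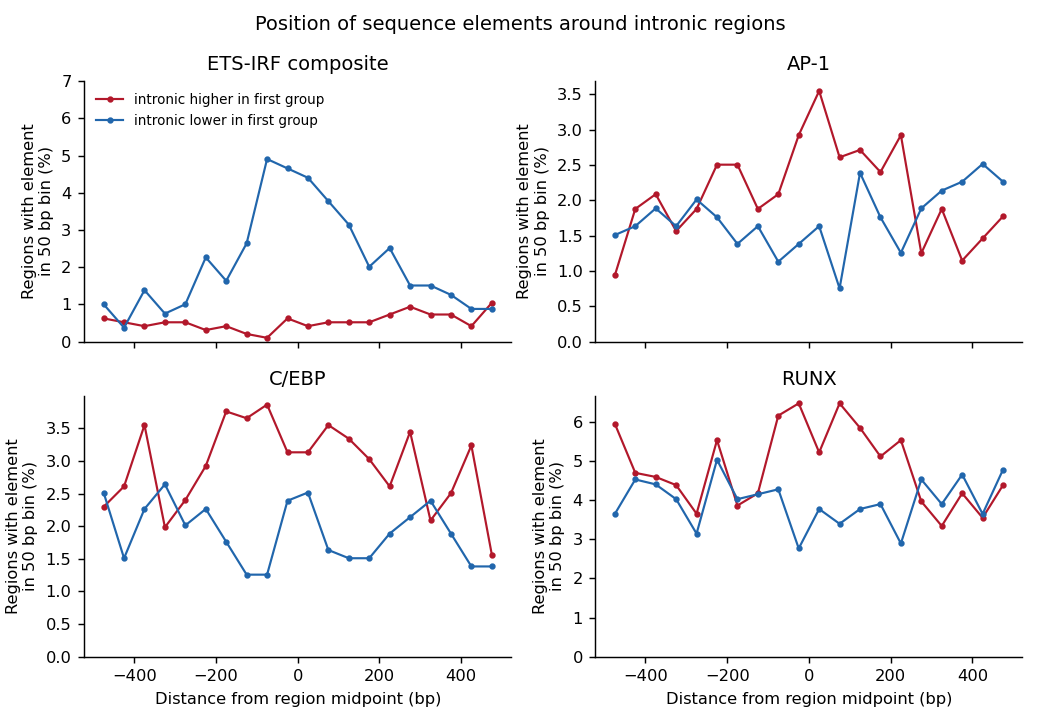
Share of regions with an element starting in each 50 bp bin (y axis, %), against distance from the region midpoint (x axis, bp), for 4 elements in intronic regions higher (red) and lower (blue) in the first group. AP-1 in higher regions rises to 3.55% beside the midpoint, while the composite rises to 4.91% in lower regions and stays at or under 1.04% in higher ones.

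Words were then compared without naming an element. Every 7-base word present in at least 20 windows of 200 bp was compared between higher and lower intronic regions, 5662 words in all. After Benjamini-Hochberg adjustment of two-sided Fisher's exact tests, 3 words were more frequent in higher regions and 15 in lower ones. The leading word was TGACTCA, the AP-1 element, in 77 higher windows (8.04%) against 16 lower ones (2.01%), with an adjusted exact p of 6.86e-06. The second was AACCACA, whose reverse complement holds the RUNX core, in 82 against 30 (adjusted exact p = 0.0195), and the third was CACTAAC, in 28 against 4 (adjusted exact p = 0.0337). Words of lower regions were led by AGTGAAA and GAACTGA, each in 32 higher and 87 lower windows. With 8-base words the leader of the higher regions was ATGACTCA, in 22 against 1 (adjusted exact p = 0.00726), and 1 word was called. With 6-base words 11 were called in each direction, and TATGAA led the higher regions, in 126 against 45 (adjusted exact p = 5.42e-05).

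Genes were then read by lists of known function, each set beside 3.05% of all genes with a higher and 2.7% with a lower intronic region. The lists differ in gene length, from a median of 12.1 kb for disease-associated microglia genes to 852 kb for neuron genes, and no list was tested. Of 52 myeloid transcription factor genes, 11 held a higher region (21.2%) and 10 a lower one (19.2%), with 20 and 18 regions. Ets1, Etv6, Irf2, Runx1, Runx2 and Runx3 held both directions. Runx2, a RUNX-family factor, held 5 higher regions in intron 5 and 3 lower ones elsewhere in the gene. The widest of the 5 higher differences in Runx2 was 0.510 (position SE 0.107) in the authors' deposited table, and the 3 lower ones were -0.280, -0.331 and -0.374.

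Among the other regulators, Ets1, the founding ETS factor, was higher by 0.485 (position SE 0.108) in the authors' deposited table, and its lower region stood at -0.472. Etv6, an ETS-family repressor, had higher regions at 0.447 and 0.287 in the authors' deposited table and 4 lower ones. Nfatc1, a calcium-dependent factor, held 3 regions, of which the widest was higher by 0.487 (position SE 0.0948) in the authors' deposited table and had an FDR under 0.05 at 27 of 27 positions. Irf2, an antagonist of IRF1 at interferon-responsive genes, held 2, at 0.396 and 0.444 in the authors' deposited table, with 5 of 8 and 0 of 5 positions of FDR under 0.05. Rreb1, a zinc-finger factor, held 2, at 0.455 and 0.363 in the authors' deposited table, with 0 and 1 positions of FDR under 0.05. Tfec, a macrophage member of the MITF family, was higher by 0.438 (position SE 0.112) in the authors' deposited table. Runx1, Runx3 and the nuclear receptor Nr4a1 had 1 higher region each, at 0.399, 0.390 and 0.356 in the authors' deposited table. Of their positions, 2 of 15, 16 of 23 and 6 of 15 had an FDR under 0.05.

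The list of immune receptor signalling and cytoskeleton genes held more higher than lower regions. Like the other lists it was chosen with earlier results of these data known, so its counts are a description. Its genes had a median length of 71.7 kb, against 17.4 kb over all protein-coding genes. Of its 44 genes 9 held a higher region (20.5%) and 2 a lower one (4.55%), with 18 and 2 regions, 8 of the 18 being those of Itga6. The DOCK family, which activates RAC and CDC42 and so moves the actin cytoskeleton, supplied 4 genes. Dock2 was higher by 0.523 (position SE 0.102) in the authors' deposited table. Dock10 held 2 higher regions, at 0.424 and 0.448, and 1 lower, at -0.417, in the authors' deposited table. Dock8 held 2 higher, at 0.336 and 0.439, and Dock4 held 1, at 0.410, in the authors' deposited table. In Dock8 0 of 5 and 8 of 10 positions had an FDR under 0.05, and in Dock4 1 of 4. Elmo1, the partner of DOCK proteins in the uptake of dying cells, had a region higher by 0.566 (position SE 0.109) with 10 of 10 positions at an FDR under 0.05, and a lower one at -0.354 with 0 of 5, in the authors' deposited table. Prkcb, a protein kinase C, was higher by 0.459 (position SE 0.103) in the authors' deposited table. Ptprj, a receptor phosphatase, and Arhgap15, a RAC inhibitor, had 1 region each, at 0.454 and 0.394 in the authors' deposited table.

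**Figure D5:**
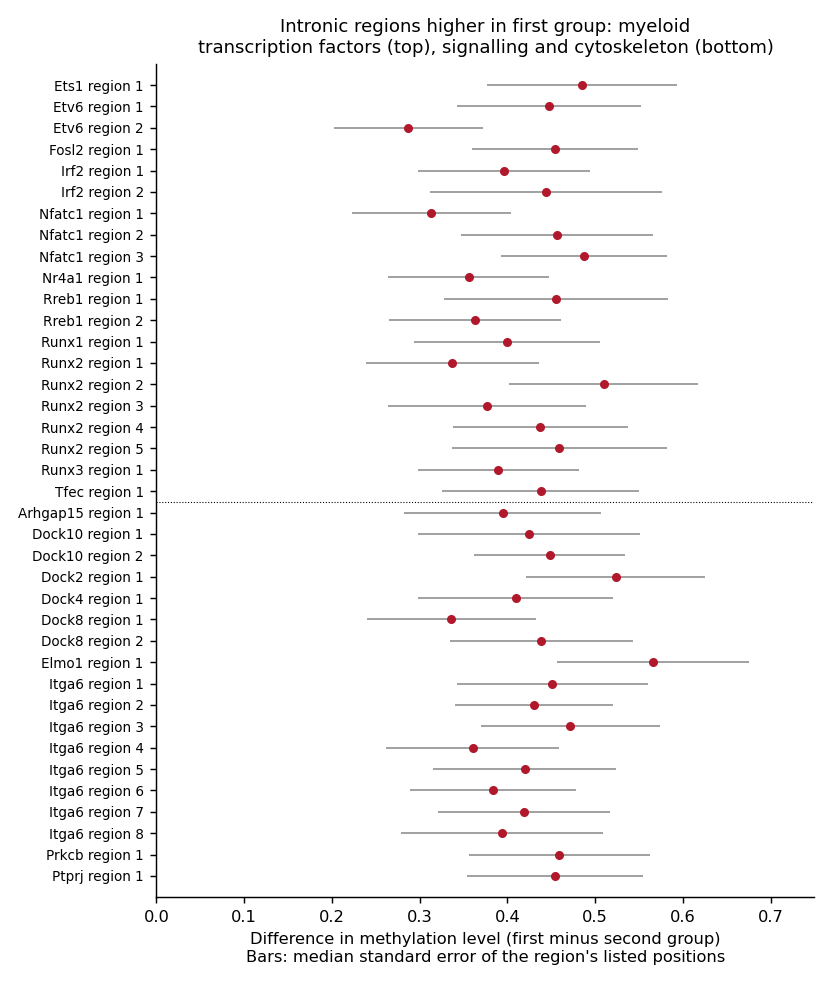
Difference in methylation level, first minus second group (x axis), of each higher intronic region (y axis) in 20 regions of myeloid transcription factor genes, above the dotted line, and 18 regions of signalling and cytoskeleton genes. Points are the authors' differences and bars the position SE on each side, which is not the error of a region's difference. The points run from 0.287 in Etv6 to 0.566 in Elmo1, with bars of similar width.

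Genes of microglial state were read from 3 lists. Of 20 identity genes 2 held a higher region (10%) and 2 a lower one, with 2 and 5 regions. Mef2c, a MADS-box factor of microglial identity, was higher by 0.436 (position SE 0.125) in the authors' deposited table, between a pair of lower regions of the same gene at -0.389 and -0.469. An FDR under 0.05 was given to 1 of 10 positions in the higher region of Mef2c, and to 3 of 6 and 1 of 9 in the lower pair. Slc2a5, the fructose transporter that marks microglia, was higher by 0.318 (position SE 0.0946), with no position of FDR under 0.05, in the authors' deposited table. Sall1, a zinc-finger factor of microglial identity, held 3 lower regions, at -0.388, -0.347 and -0.501, and no higher one in the authors' deposited table. Of 19 disease-associated microglia genes 1 held a higher region (5.26%) and none a lower one. It was Cd9, a tetraspanin, at 0.351 (position SE 0.0959) in the authors' deposited table. Of 18 interferon response genes 2 held a higher region (11.1%) and 1 a lower one. Ifnar2, a type I interferon receptor chain, was higher by 0.377, and Oas2, an antiviral oligoadenylate synthetase, had a region at -0.322, in the authors' deposited table. These shares stand beside 3.05% over all genes, and with 1 or 2 genes each they carry no test.

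Of 23 TGF-beta signalling genes 1 held a higher region, Smad3, the receptor-activated signal transducer, with 2 adjoining regions at 0.413 and 0.402 in the authors' deposited table. Of 25 Toll-like receptor and inflammasome genes 2 did. Nod1, a sensor of bacterial peptidoglycan, was higher by 0.592 (position SE 0.112), with 4 of 4 positions at an FDR under 0.05, and Irak3, an inhibitor of Toll-like receptor signalling, by 0.392 (position SE 0.109), in the authors' deposited table. Neither of these lists had a lower intronic region. No higher or lower intronic region lay in the 11 methylation enzyme genes.

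Genes that mark other cells of the brain were read the same way, because a sorted sample can hold some of them. Of 19 genes of border macrophages and monocytes, 3 held a higher region and 1 a lower one. Mrc1, the mannose receptor of border macrophages, held 3 higher regions within 2562 bp at the start of intron 1. These were higher by 0.412, 0.364 and 0.273 in the authors' deposited table. An FDR under 0.05 was given to 13 of 19, 1 of 5 and 0 of 5 of their listed positions. Cd163, a haemoglobin scavenger receptor, was higher by 0.459 (position SE 0.102), and Cd36, a lipid scavenger receptor, by 0.443 (position SE 0.120), in the authors' deposited table. The lower region of this list was in Plac8, at -0.389 (position SE 0.104), in the authors' deposited table. Whether a different share of border macrophages or monocytes in the samples contributes was not tested.

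Of 25 neuron genes, whose median length was 852 kb, 3 held a higher region and 1 a lower one. Cntn5, Grin2a and Syt1 were higher by 0.293, 0.393 and 0.382 in the authors' deposited table, with 0 or 1 position of FDR under 0.05 each. Of 13 astrocyte genes none held a higher region and 1 a lower one, and of 14 oligodendrocyte lineage genes none held either. Of 14 endothelial and mural cell genes 1 held a higher region and 2 a lower one. Pdgfrb, the mural cell receptor, was higher by 0.382 (position SE 0.0996) over 4 cytosines in the authors' deposited table. Of those cytosines 1 had an FDR under 0.05. The 5 lower regions of this list were in Flt1 and Pecam1. Flt1 reached -0.461, with 24 of 34 positions at an FDR under 0.05, and Pecam1 -0.503, with 13 of 13, in the authors' deposited table. The lower regions of the neuron and astrocyte lists were in Ptprd, at -0.323, and Slc1a3, at -0.441, in the authors' deposited table.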

How the data were processed

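Reads of 4 libraries were trimmed with Trim Galore and aligned with Bismark to mm10, per the submitters' processing notes; no source used here names the region caller, its test or its settings. Per the file headers, the authors' deposited region table gives the difference in level, the length, the number of cytosines and an area score. The authors' deposited site table gives, for 269406 positions, the difference, its standard error, a test statistic as a score, and a p-value with an FDR. The levels per group (6 columns with their dispersions) were not used, since no header ties them to a genotype; they were read to see that 3389 of 3389 differences have the sign of first minus second. Unused columns of values per sample numbered 0. The depth is unknown.

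Midpoints were placed on GENCODE M21 models of protein-coding genes and their protein-coding transcripts, the shortest gene being named where several overlapped. Coordinates count from 1. Windows of 500 bp around midpoints, and all 500 bp windows of eligible introns, were read from the RefSeq GRCm38 sequence and searched on both strands for 10 elements. Intronic regions higher and lower in the first group were compared by two-sided Fisher's exact tests with conditional odds ratios (SciPy 1.17.1, Python 3.11.15), adjusted by Benjamini-Hochberg over 15 tests (statsmodels 0.14.6). A call is an adjusted p under 0.05, and alternatives were judged on the unadjusted p. Intervals are exact 95% intervals (Clopper-Pearson for shares), cover counting error only and take regions as independent, although 97 member windows overlap another. The search for elements, except MEF2 and CTCF, was tested on simulated sequence with planted elements. The other steps were not tested in this way.

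Named were the 15 regions with the highest area score, the 10 genes with most regions (the tenth, Tcf7l2, has 5 like 7 other genes and was taken for the highest area score), genes of 13 lists (2 listed names had no match) that hold a region, 6 regions with the composite, and regions at the rule's limits. St8sia4, Armc2, the regions with the AP-1 word and the lower regions printed for comparison were chosen after their values were seen. The members and lists were chosen with earlier results of these data known. The result of 1 listed gene is not reported here. The scans of words of 6, 7 and 8 bases were added after seeing the data.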

Additional observations from a re-analysis of the deposited data

How the results depend on the processing

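Of 117 alternative values, 96 kept their direction and their side of 0.05 in the exact p, or stayed within 1.5 times the count. The composite against lower intronic regions did so in 12 of 12 (odds ratios 0.0680 to 0.179), as did C/EBP in 12 of 12 (1.56 to 2.19). The alternatives for AP-1, C/EBP, RUNX, E-box and the IRF tandem, and the GC band and exon definition throughout, were chosen after seeing the data. For calls that were lost the cause was not tested. With 1000 bp windows AP-1 fell to 1.2. In the GC band of 45 to 52% RUNX fell to 1.29 and the E-box to 1.53. The E-box was also lost in the region's own span (1.26), with at least 10 cytosines (1.36), with an FDR site inside (1.43) and with 1 region per gene (1.45), where the IRF tandem stood at 0.682. The share with fewer than 3 CpGs was 1.02 with at least 10 cytosines, which removes most such regions. At least 75% repeats gave 1.85 (exact p = 0.0458), and regions with an FDR site inside gave a repeat ratio of 0.978. First introns of the longest transcript gave 0.970. Against gene-near intergenic regions the composite ratio, 1.01 with an interval from 0.537 to 1.99, rose to 2.07 with soft-masked bases not searched (27 of 958 against 5 of 362, exact p = 0.161) and to 1.19 in the region's own span, and fell to 0.944 in 1000 bp windows, 0.953 with at least 10 cytosines, 0.759 with at least 3 CpGs, 0.980 on autosomes, 0.900 with an FDR site, 0.783 with 1 region per gene and 0.997 in the GC band. The 958 regions became 398 with at least 10 cytosines and 563 with at least 3 CpGs, by construction, and 930 when exons of every transcript of a protein-coding gene were barred. No paired analysis was possible because levels are given per group alone, and for the same reason leaving out a replicate and a coverage minimum were not run. Without depth, no limit of detection can be given for a single region.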
